A study of Mus musculus with 6 samples.

Results

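Lipid-associated macrophage genes are genes that macrophages of adipose tissue express when they surround dying adipocytes and fill with lipid, as happens in obesity. The 10 genes described here, Trem2, Spp1, Gpnmb, Lgals3, Cd9, Itgax, Atp6v0d2, Msr1, Ctss and Cd68, were taken by the gene name that the scanner files give each probe, and a probe was used where it was well above background on at least 3 of 6 arrays. All 10 were measured, among 19187 genes or unnamed features in all. They were covered by 16 probes, of which 14 were used.

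The samples were epididymal white adipose tissue, the fat depot beside the testis, of 3 patDp/+ mice and 3 wild type mice, all males on a C57BL/6 background aged 9 to 10 weeks. patDp/+ mice carry, in every cell, an additional copy of a segment of chromosome 7 inherited from the father, the counterpart of a human region whose duplication is found in some people with autism. Total RNA of each mouse was labelled with Cy3 and hybridised to an Agilent mouse array of 1 colour. No treatment is stated for either group, and the comparison asks how the paternal duplication changes gene expression in the fat of young adults.

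Adipose macrophages take up lipid and cell debris through scavenger receptors and through the lipid-sensing receptor Trem2, and they break this material down in lysosomes. In obese fat, macrophages with this programme gather in rings around dead adipocytes, called crown-like structures, and there they carry CD11c and CD9 on their surface. Trem2 signals through the adaptor Tyrobp, and macrophages without Trem2 do not take on the lipid-associated state in obese mice.

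No lipid-associated macrophage gene was called different between patDp/+ and wild type fat, with 3 mice in each group. A log2 difference here is the mean of the patDp/+ arrays minus the mean of the wild type arrays. It was positive for 9 of 10 genes, against 47.3% of all genes, with a median of 0.30 over the 10 genes and of -0.01 over all genes. The differences ran between -0.03 (Gpnmb) and 0.46 (Lgals3). In limma with Benjamini-Hochberg adjustment over all genes, 0 of 10 passed an adjusted p under 0.05, as did 0% of all genes, and the smallest adjusted p of any gene was 0.345. At an unadjusted p under 0.05, 0 of 10 were higher, against 2.68% of all genes, and 0 were lower, against 2.92%. The values of the groups overlapped for each of the 10 genes, whereas 5.26% of all genes had every patDp/+ array above every wild type array and 5.89% had every one below. The size of the median depended on single mice, since it was 0.02 without patDp/+ replicate 1, 0.46 without patDp/+ replicate 3, 0.16 without wild type replicate 2 and 0.48 without wild type replicate 3.

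**Figure D1:**
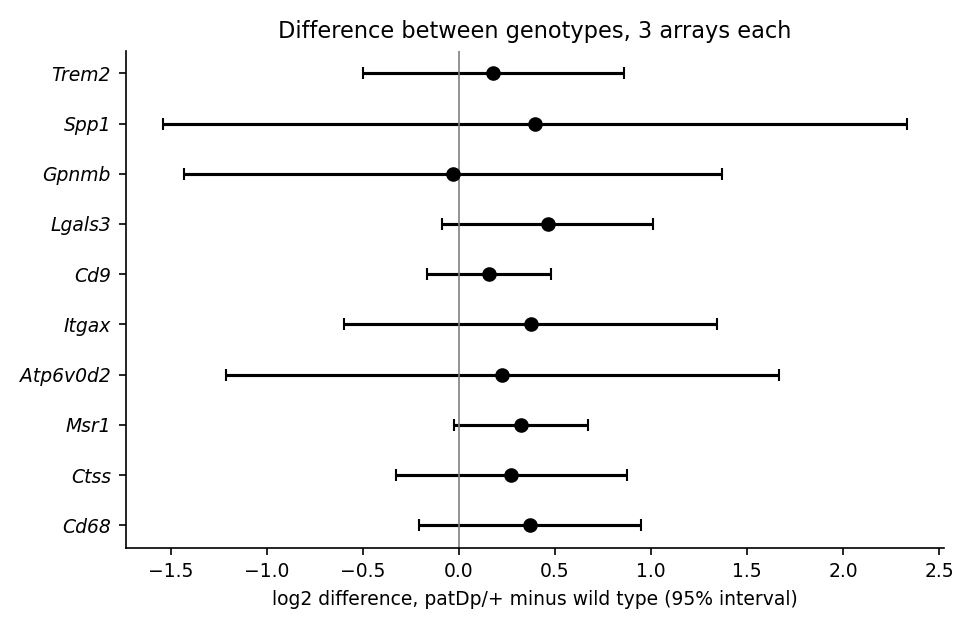
Log2 difference of each of the 10 genes, patDp/+ minus wild type, with the 95% interval from limma as a horizontal bar (3 arrays in each group). Each interval includes 0. The widest is that of Spp1, between -1.54 and 2.33, and the narrowest is that of Cd9, between -0.16 and 0.48.

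The arrays were closely correlated, but patDp/+ replicate 1 had the highest net signal of the negative controls (36.7, against 29.0 to 31.6 on the other arrays). Between 26079 and 29472 of 41174 probes were well above background on each, the lowest on patDp/+ replicate 3 and the highest on patDp/+ replicate 1, and the lowest correlation between any pair of arrays was 0.988. The genes Snrpn, Ndn, Ube3a and Herc2 of the duplicated segment were 1.41-fold to 2.28-fold higher in patDp/+ fat, with no overlap between the groups for any of the 4, so the labels matched the duplication. All 12 adipocyte markers and all 19 general macrophage markers on the lists were measured, but 3 of 10 epididymis markers. In such bulk tissue, a change in the number of macrophages and a change in RNA per macrophage cannot be told apart.

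Trem2 encodes the surface receptor for lipids and lipoproteins that defines this macrophage state. Its level, as log2 relative to the 75th percentile of the array, was 2.43, 1.995 and 1.45 in the patDp/+ mice (replicates 1, 2 and 3), against 1.76, 1.47 and 2.11 in the wild type mice. patDp/+ replicate 1 and wild type replicate 3 were the highest, patDp/+ replicate 3 was the lowest, and the groups overlapped. The log2 difference was 0.18 ± 0.28 (SE), with a 95% interval between -0.50 and 0.86 (limma adjusted p = 0.967). The probe behind these values lies on chromosome 17, between 48491522 and 48491581 (mm9, plus strand). Another Trem2 probe put the 6 mice in the same order, with 0.53, 0.16 and -0.44 in patDp/+ mice and -0.14, -0.31 and 0.30 in wild type mice (difference 0.13 ± 0.28). It is shown because its 60 bases match the genome over a span of 137 bases, chr17:48491220-48491356 (mm9, plus strand), as does a probe that crosses a splice junction.
Trem2 probe: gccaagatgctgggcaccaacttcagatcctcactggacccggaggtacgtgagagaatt

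Itgax encodes the integrin alpha chain CD11c, a marker of adipose macrophages in obesity and also of dendritic cells. Its level was 1.28, 0.21 and -0.03 in patDp/+ mice, against -0.12, -0.20 and 0.66 in wild type mice. Again patDp/+ replicate 1 and wild type replicate 3 stood above the other 4 mice, and the highest mouse had 2.79-fold the level of the lowest. Between the genotypes the log2 difference was 0.37 ± 0.40 (SE), with a 95% interval between -0.60 and 1.34 (adjusted p = 0.948, limma). Of all genes, 96.2% had a smaller spread within the groups. A dimmer Itgax probe, well above background on 3 arrays, had a difference of 0.37 ± 0.28. Like the duplicated segment, Itgax is on chromosome 7, but its probe, between 135294052 and 135294111 (mm9, plus strand), lies 65.7 Mb beyond the probe of Mkrn3 at the end of that segment. The mean deviation of the dendritic cell markers did not have the order of Itgax. It was 0.14, 0.05 and -0.10 in patDp/+ mice and -0.20, 0.15 and -0.03 in wild type mice. Of these 10 markers, 1 (Flt3) had patDp/+ replicate 1 and wild type replicate 3 as its 2 highest mice, against 5.03% of all genes. The part of dendritic cells in the level of Itgax was not tested. The promoter of Itgax, chr7:128129300-128129599 (GRCm38.p6, RefSeq, plus strand), is shown here with those of Spp1 and Gpnmb further on, because these 3 genes varied most between mice among the members with a promoter entry. The capitals mark an AP-1 motif 56 bases before the transcription start.
Itgax promoter: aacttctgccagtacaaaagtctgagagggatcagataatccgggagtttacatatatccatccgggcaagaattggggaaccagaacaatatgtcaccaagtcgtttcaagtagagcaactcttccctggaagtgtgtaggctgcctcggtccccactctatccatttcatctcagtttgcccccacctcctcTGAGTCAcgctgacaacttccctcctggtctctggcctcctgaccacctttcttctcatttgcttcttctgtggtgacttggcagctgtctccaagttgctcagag

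Msr1 encodes the class A scavenger receptor, which takes up modified lipoproteins. It had the steadiest levels in patDp/+ mice, with -2.23, -2.30 and -2.14, against -2.59, -2.78 and -2.26 in wild type mice. All 3 patDp/+ mice were above 2 of the wild type mice, and wild type replicate 3 lay within the patDp/+ range. For Msr1 the log2 difference was 0.32 ± 0.14 (SE), with a 95% interval between -0.02 and 0.67, and limma gave an adjusted p = 0.876. The Msr1 probe lies on chromosome 8, between 40689158 and 40689217 (mm9, minus strand). The other 2 probes of the gene had differences of 0.11 ± 0.16 and 0.26 ± 0.15. On those probes patDp/+ replicate 3, the highest mouse by the first probe, had levels of -2.66 and -3.07, the lowest of its group, so the order of the mice differed between probes of this gene.

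Spp1 encodes osteopontin, a secreted phosphoprotein that binds integrins and CD44 and attracts macrophages. Its level was -3.21, -4.56 and -5.73 in patDp/+ mice, against -5.07, -5.95 and -3.67 in wild type mice. patDp/+ replicate 1 had 6.66-fold the level of wild type replicate 2, and wild type replicate 3 came second. The log2 difference was 0.40 ± 0.80 (SE), with a 95% interval between -1.54 and 2.33 (limma adjusted p = 0.978). Of all genes, 99.5% varied less within the groups. The probe (chromosome 5, between 104869788 and 104869847, mm9, plus strand) is printed 10 times on the array, which gives the noise between spots of 1 array. This leaves out errors of labelling and hybridisation, which the spots of an array share. The standard deviation between its spots on 1 array lay between 0.07 and 0.34 on the log2 scale, whereas that between mice was 1.26 in patDp/+ and 1.15 in wild type fat. The median spot intensity was 112 on patDp/+ replicate 1, 40.8 on replicate 2 and 17.3 on replicate 3, against 26.2, 16.1 and 78.0 on the wild type arrays. The gene was not well above background on patDp/+ replicate 3 and wild type replicate 2, so the fold between the highest and the lowest mouse rests on a dim value. An Spp1 promoter, chr5:104434861-104435160 (GRCm38.p6, RefSeq, plus strand), holds a PU.1 motif, in capitals, 113 bases before the start. A further promoter entry of the gene, chr5:104435942-104436241, held none of the motifs searched and is not shown.
Spp1 promoter: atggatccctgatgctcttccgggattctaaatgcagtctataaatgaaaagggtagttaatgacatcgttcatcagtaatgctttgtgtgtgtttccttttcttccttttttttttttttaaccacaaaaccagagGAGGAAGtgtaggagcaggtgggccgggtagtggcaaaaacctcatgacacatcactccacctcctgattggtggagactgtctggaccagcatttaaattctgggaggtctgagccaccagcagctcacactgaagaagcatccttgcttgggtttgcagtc

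Lgals3 encodes galectin-3, a secreted lectin that binds galactose-bearing glycans and is abundant in phagocytic macrophages. Its level was 4.79, 4.22 and 4.49 in patDp/+ mice, against 3.62, 4.27 and 4.23 in wild type mice. patDp/+ replicate 1 was again the highest, but wild type replicate 3 lay between wild type replicate 2 and patDp/+ replicate 2. Wild type replicate 1 stood below the other 5. The log2 difference of 0.46 ± 0.23 (SE) was the largest of the 10 genes, and its 95% interval ran between -0.09 and 1.01 (adjusted p = 0.880, limma). The single Lgals3 probe matches chr14:48004398-48005214 (mm9, plus strand), a span of 817 bases for a probe of 60, and is shown because it, too, spans more bases than its own length.
Lgals3 probe: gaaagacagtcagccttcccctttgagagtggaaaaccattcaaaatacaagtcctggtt

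Gpnmb encodes a transmembrane glycoprotein that rises in macrophages whose lysosomes are loaded with lipid. Its level was 0.08, -1.31 and -1.36 in patDp/+ mice, against -1.49, -1.23 and 0.22 in wild type mice. The split between mice was sharpest here, since patDp/+ replicate 1 and wild type replicate 3 were each more than 2-fold above every one of the other 4 mice, which lay between -1.49 and -1.23. The log2 difference between genotypes was -0.03 ± 0.58 (SE), with a 95% interval between -1.43 and 1.37 (limma adjusted p = 0.997). The probe lies on chromosome 6, between 49006386 and 49006445 (mm9, plus strand). The Gpnmb promoter, chr6:49036268-49036567 (GRCm38.p6, RefSeq, plus strand), holds the reverse complement of the AP-1 motif, in capitals, 9 bases into the transcript.
Gpnmb promoter: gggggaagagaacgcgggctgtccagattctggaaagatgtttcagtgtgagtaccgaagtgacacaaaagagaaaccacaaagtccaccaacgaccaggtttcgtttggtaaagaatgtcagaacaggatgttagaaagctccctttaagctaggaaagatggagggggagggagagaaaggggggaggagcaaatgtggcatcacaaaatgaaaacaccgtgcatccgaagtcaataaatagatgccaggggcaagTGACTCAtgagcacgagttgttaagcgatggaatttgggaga

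Cd9 encodes a tetraspanin that organises membrane proteins and marks macrophages of crown-like structures, but it is also made by many other cells. Its level was 2.96, 2.84 and 2.63 in patDp/+ mice, against 2.47, 2.66 and 2.83 in wild type mice. The highest mouse had 1.41-fold the level of the lowest, the narrowest range of the 10 genes. The log2 difference was 0.16 ± 0.13 (SE), with a 95% interval between -0.16 and 0.48 (limma adjusted p = 0.932). Its probe lies on chromosome 6, between 125410387 and 125410446 (mm9, minus strand).

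Among the lysosomal genes, Ctss encodes cathepsin S, a protease of antigen-presenting cells. Its level was 5.31, 4.80 and 4.53 in patDp/+ mice, against 4.48, 4.36 and 4.98 in wild type mice. patDp/+ replicate 1 and wild type replicate 3 were the highest, and the log2 difference was 0.27 ± 0.25 (SE, 95% interval between -0.33 and 0.87, limma adjusted p = 0.932). The Ctss probe lies on chromosome 3, between 95360162 and 95360221 (mm9, plus strand).

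Cd68 encodes macrosialin, a glycoprotein of the lysosomal membrane used as a marker of macrophages. Its level was 2.23, 1.81 and 1.29 in patDp/+ mice, against 1.44, 1.26 and 1.52 in wild type mice. Replicates 1 and 2 of patDp/+ were above all wild type mice, while replicate 3 lay within the wild type range. The means of the groups gave a log2 difference of 0.37 ± 0.24 (SE), with a 95% interval between -0.21 and 0.95 (limma adjusted p = 0.904). Its probe lies on chromosome 11, between 69478314 and 69478373 (mm9, minus strand).

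Atp6v0d2 encodes the d2 subunit of the vacuolar proton pump, an isoform known from osteoclasts and from macrophages with lipid-loaded lysosomes. Its level was -3.30, -4.91 and -5.03 in patDp/+ mice, against -5.36, -4.80 and -3.76 in wild type mice. patDp/+ replicate 1 and wild type replicate 3 were the highest, with a range of 4.18-fold over the 6 mice. The log2 difference was 0.23 ± 0.59 (SE), with a 95% interval between -1.21 and 1.66 (limma adjusted p = 0.984). The probe (chromosome 4, between 19804304 and 19804363, mm9, minus strand) was not well above background on patDp/+ replicate 3 and wild type replicate 1, so the fold between the highest and the lowest mouse rests on a dim value. Its intensity was 102, 32.8 and 29.5 on the patDp/+ arrays and 21.5, 34.3 and 74.1 on the wild type arrays.

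**Figure D2:**
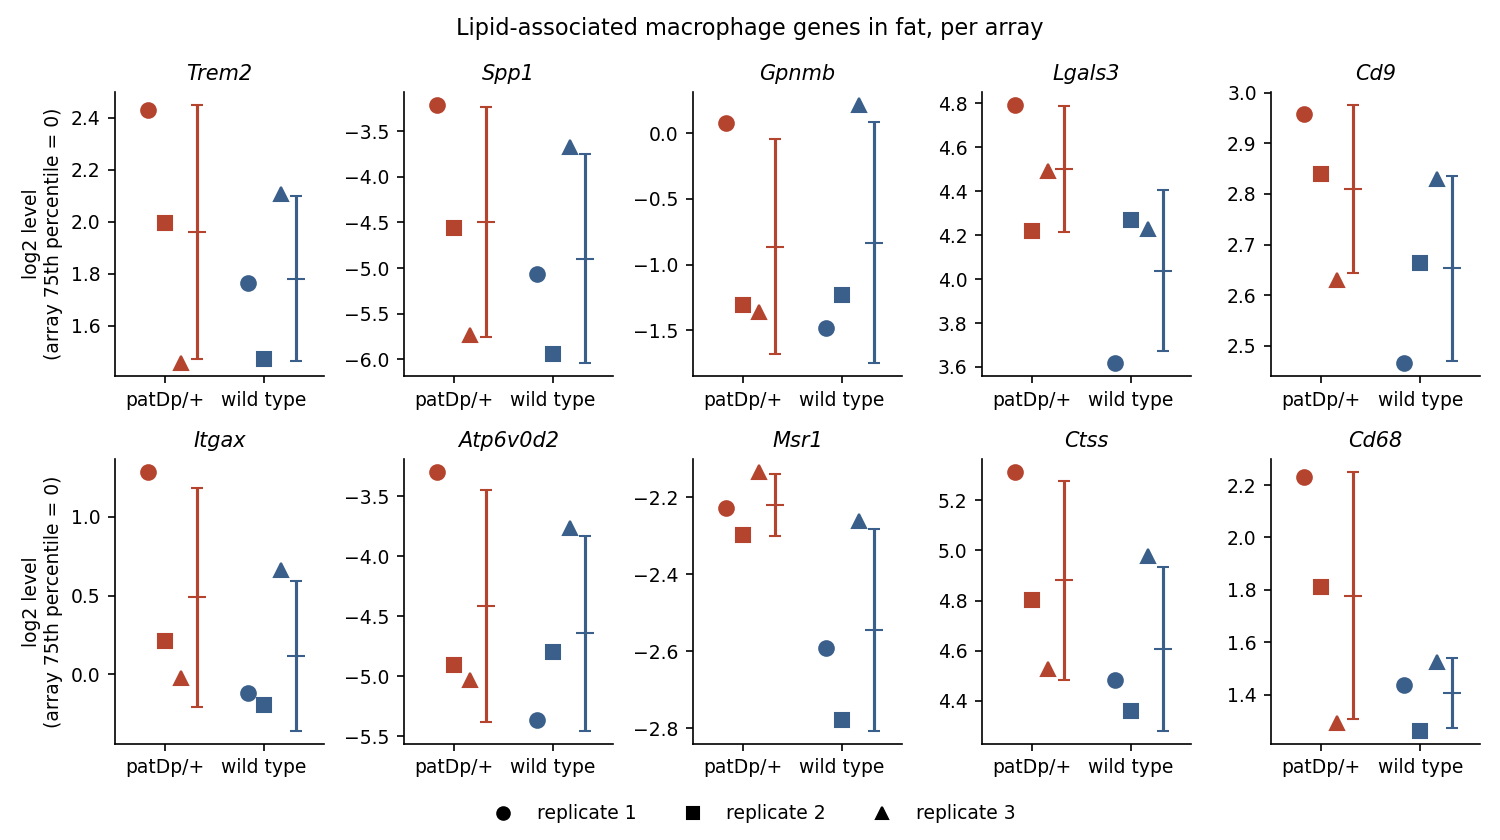
Log2 level of each of the 10 genes on every array, relative to the 75th percentile of the array, with patDp/+ mice in red and wild type mice in blue, and with the group mean and standard deviation beside the points (n = 3 each). The vertical scale differs between panels. patDp/+ replicate 1 is the highest of the 6 mice for 8 genes, wild type replicate 3 for Gpnmb and patDp/+ replicate 3 for Msr1.

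Beside these small differences between genotypes, the genes varied together from mouse to mouse within a genotype. patDp/+ replicate 1 was the highest mouse for 8 of 10 genes and among the 2 highest for all 10, and wild type replicate 3 was among the 2 highest for 6. The shares of all genes for which each of these mice ranked so are not given here. With each gene centred on its own mean over the 6 mice, the average deviation over the 10 genes was 0.73, -0.03 and -0.29 in patDp/+ mice, against -0.39, -0.40 and 0.38 in wild type mice. These averages gave a standard deviation of 0.53 between patDp/+ mice and of 0.45 between wild type mice, both larger than the difference of 0.27 between the genotypes. Atp6v0d2, Ctss, Gpnmb, Itgax, Spp1 and Trem2 had patDp/+ replicate 1 and wild type replicate 3 as their 2 highest mice, which is 6 of 10 genes, against 5.03% of all genes. These mice were singled out after the values were seen, and the genes of 1 mouse share an RNA sample and an array, so this count describes the 6 mice and was not tested. The net signal of the negative controls was 36.7, 29.98 and 29.0 on the patDp/+ arrays and 31.6, 30.8 and 29.4 on the wild type arrays, so it too was highest on patDp/+ replicate 1, while wild type replicate 3 had the lowest of its group. The part of the array in the high values of patDp/+ replicate 1 was not tested.

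Each slide held 1 patDp/+ array and the wild type array of the same replicate number, so each difference could also be taken within a slide. On slide 1 all 10 genes were higher in the patDp/+ mouse, with a median log2 difference of 1.00. On slide 2, 7 genes were higher and 3 lower (median 0.42), and on slide 3, 2 were higher and 8 lower (median -0.55). The direction of most genes thus turned between slides, and Msr1 alone was higher in the patDp/+ mouse on all 3 (0.37, 0.48 and 0.13). This held for the Msr1 probe used, but not for the other kept probes of the gene. On slide 3 these had -2.66 and -3.0720 in the patDp/+ mouse, against -2.46 and -3.0717 in the wild type mouse. Spp1 had the widest range, with 1.86 on slide 1, 1.39 on slide 2 and -2.06 on slide 3. The median over all genes was 0.02, -0.02 and -0.01 on these slides. With the slide as a block the differences were as before, and 0 of 10 genes passed the adjusted threshold in limma, with Msr1 at an adjusted p = 0.921.

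**Figure D3:**
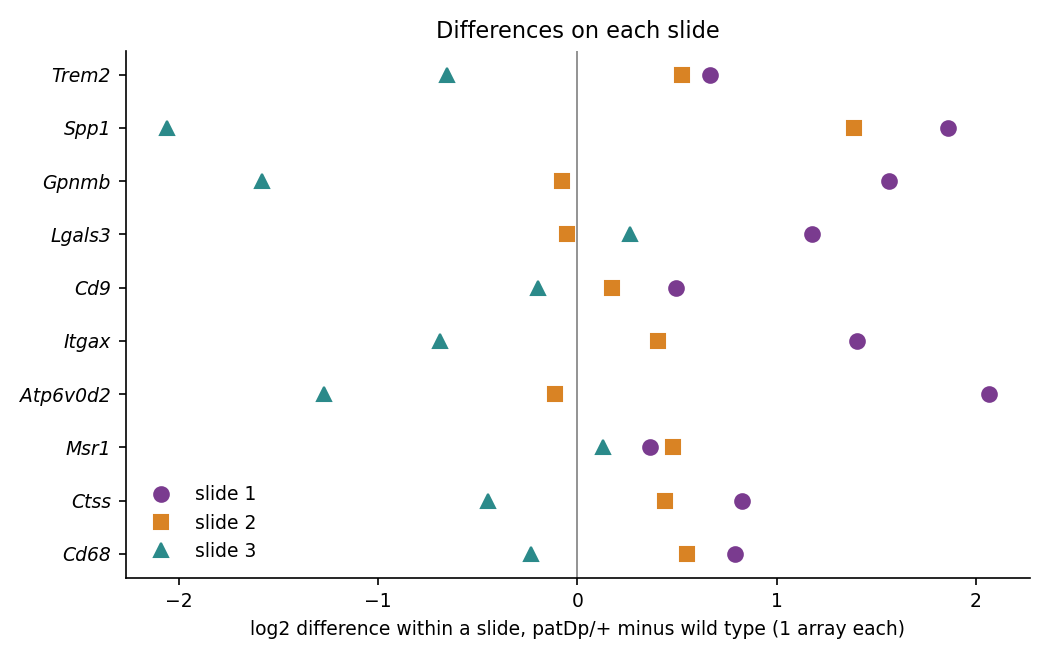
Log2 difference of each gene within each of the 3 slides, 1 patDp/+ array minus 1 wild type array. The circles of slide 1 all lie right of 0, whereas 8 of the 10 triangles of slide 3 lie left of it.

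General macrophage markers did not have this order of mice. The 19 markers, among them the growth factor receptor Csf1r and the complement genes C1qa, C1qb and C1qc, had an average deviation of 0.26, 0.22 and -0.13 in patDp/+ mice, against -0.02, -0.17 and -0.16 in wild type mice. Wild type replicate 3, at 0.38 for the lipid-associated macrophage genes, was thus close to the lowest mouse for the general markers. None of the 19 had patDp/+ replicate 1 and wild type replicate 3 as its 2 highest mice, against 5.03% of all genes. In a list of 19 a count of 0 is near that share, so it does not set the markers apart from other genes. Set against the general markers, the average of the 10 genes was 0.47, -0.24 and -0.17 in patDp/+ mice and -0.37, -0.23 and 0.54 in wild type mice. Relative to these markers the genotypes differed by 0.04, against 0.27 before. Of the 19 markers, 17 had a positive difference between genotypes (median 0.24), against 47.3% of all genes, and 0 passed the adjusted threshold. At an unadjusted p under 0.05 in limma, 3 were higher, against 2.68% of all genes. Among these were Timd4 (0.19 ± 0.07, SE) and the folate receptor gene Folr2 (0.40 ± 0.16). The average of the adipocyte markers varied little, with -0.04, -0.09 and 0.06 in patDp/+ mice and 0.06, 0.11 and -0.10 in wild type mice. A single marker could vary more, as did Cidea, with levels between 0.75 and 2.26 over the 6 mice.

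**Figure D4:**
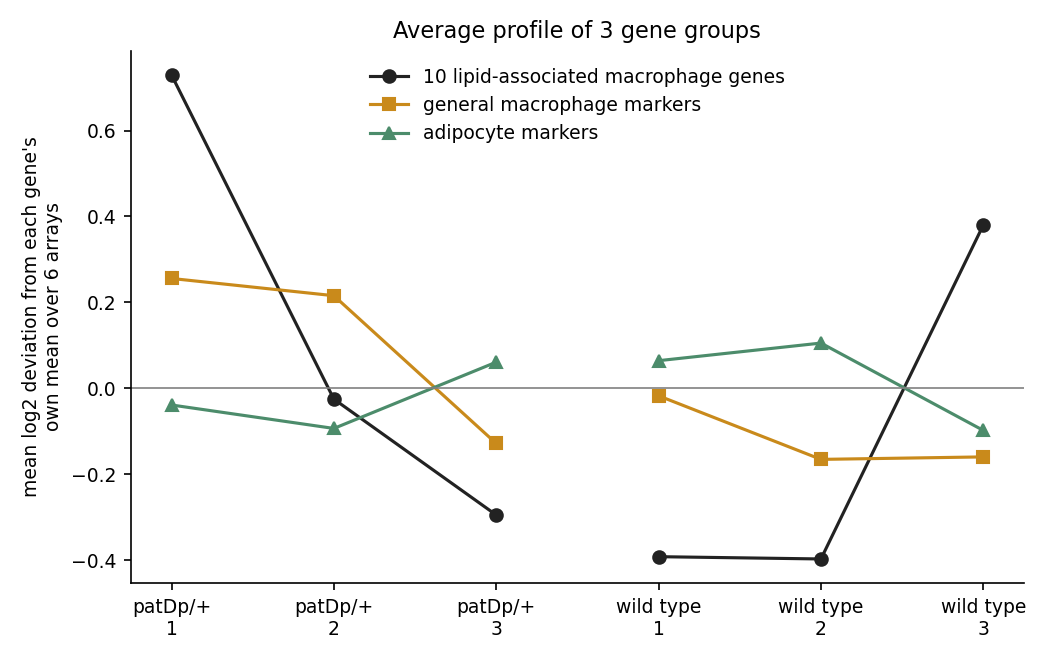
Mean log2 deviation of each gene from its own mean over the 6 arrays, averaged over the 10 lipid-associated macrophage genes, 19 general macrophage markers and 11 adipocyte markers with a value on every array. The 10 genes peak in patDp/+ replicate 1 (0.73) and wild type replicate 3 (0.38). The general macrophage markers are at -0.16 in wild type replicate 3.

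The genes of the receptors and adaptors that work with Trem2 did not pass either. Of 13 listed, 9 were measured, and 7 had a positive difference (median 0.24), against 47.3% of all genes. Tyrobp, the adaptor of Trem2, had 4.45, 4.17 and 3.90 in patDp/+ mice, against 4.06, 3.67 and 3.92 in wild type mice, a difference of 0.29 ± 0.17. Inpp5d, the phosphatase SHIP1 that dampens this signal, had 0.24 ± 0.09, Plcg2, the phospholipase that carries it on, 0.28 ± 0.16, and the exchange factor gene Vav1 0.33 ± 0.14. Of these 4 genes, only Inpp5d was past an unadjusted p of 0.05. All 12 measured partners of CD11c and receptors of osteopontin, of 13 listed, had positive differences (median 0.25). Their smallest p belonged to Icam1, a ligand of the CD11c integrin (0.24 ± 0.07), and to the osteopontin receptor subunit Itgb3 (0.39 ± 0.14), and 0 of the 12 passed the adjusted threshold.

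Genes of lipid uptake and efflux had no common direction. Of 18 measured members of that list, 9 had positive and 9 negative differences, with a median of -0.002. Among the leading ones were the scavenger receptor gene Scara3 (0.38 ± 0.11), the cholesterol exporter gene Abcg1 (0.29 ± 0.09) and Stab1 (0.27 ± 0.11), all at an unadjusted p under 0.05 and none past the adjusted threshold. Among 28 lysosomal genes, 25 had positive differences, but the median was 0.11. Lgmn, the asparaginyl endopeptidase legumain, had 0.42 ± 0.12, and the beta-galactosidase gene Glb1 0.23 ± 0.09. The 16 other subunits of the vacuolar pump had a median of 0.07, with 12 positive. Of 12 other tetraspanins and galectins, 7 were positive (median 0.05), the smallest p being that of Tspan4 (0.17 ± 0.09). In the list of genes of multinucleated macrophages, 9 of 10 were positive (median 0.17), and the growth factor gene Csf1 had 0.39 ± 0.11. None of these genes passed an adjusted p under 0.05. Beside these counts, 47.3% of all genes had a positive difference, and 2.68% were higher at an unadjusted p under 0.05 in limma.

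Of the 105 other genes measured on these 7 lists, 5 had patDp/+ replicate 1 and wild type replicate 3 as their 2 highest mice (4.76%), a share close to the 5.03% of all genes. The 5 were picked by this order and are given as a description. Among 101 cell type markers 4 had it (3.96%), the fibroblast genes Col3a1 and Lum, the dendritic cell gene Flt3 and the epididymis gene Lcn9. Mmp12, the macrophage metalloelastase, had a level of -1.41, -3.57 and -3.13 in patDp/+ mice, against -4.79, -4.65 and -1.49 in wild type mice (difference 0.94 ± 1.02). Dcstamp, needed for the fusion of macrophages and osteoclasts, had -2.49, -4.09 and -4.32 in patDp/+ mice, against -4.08, -4.76 and -3.54 in wild type mice. In both genes patDp/+ replicate 1 and wild type replicate 3 stood above the other 4 mice. The cholesterol ester hydrolase gene Nceh1 had 1.07, 0.87 and 0.81 in patDp/+ mice and 0.64, 0.55 and 1.00 in wild type mice. Soat1, which esterifies cholesterol for storage, had 0.23, -0.02 and -0.27 in patDp/+ mice and -0.35, -0.42 and 0.04 in wild type mice. Ctsk, a lysosomal protease of osteoclasts and macrophages, had 0.57, 0.27 and 0.05 in patDp/+ mice and 0.17, 0.03 and 0.36 in wild type mice. By list, 2 of 10 genes of multinucleated macrophages, 2 of 18 of lipid uptake and efflux, and 1 of 28 lysosomal genes had this pair of highest mice. In the lists of Trem2 partners, integrin partners, tetraspanins and galectins, and vacuolar pump subunits, 0 genes had it. Among the 7 lists, only the average of the multinucleated macrophage genes was highest in patDp/+ replicate 1 (0.36) and next in wild type replicate 3 (0.13).

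**Figure D5:**
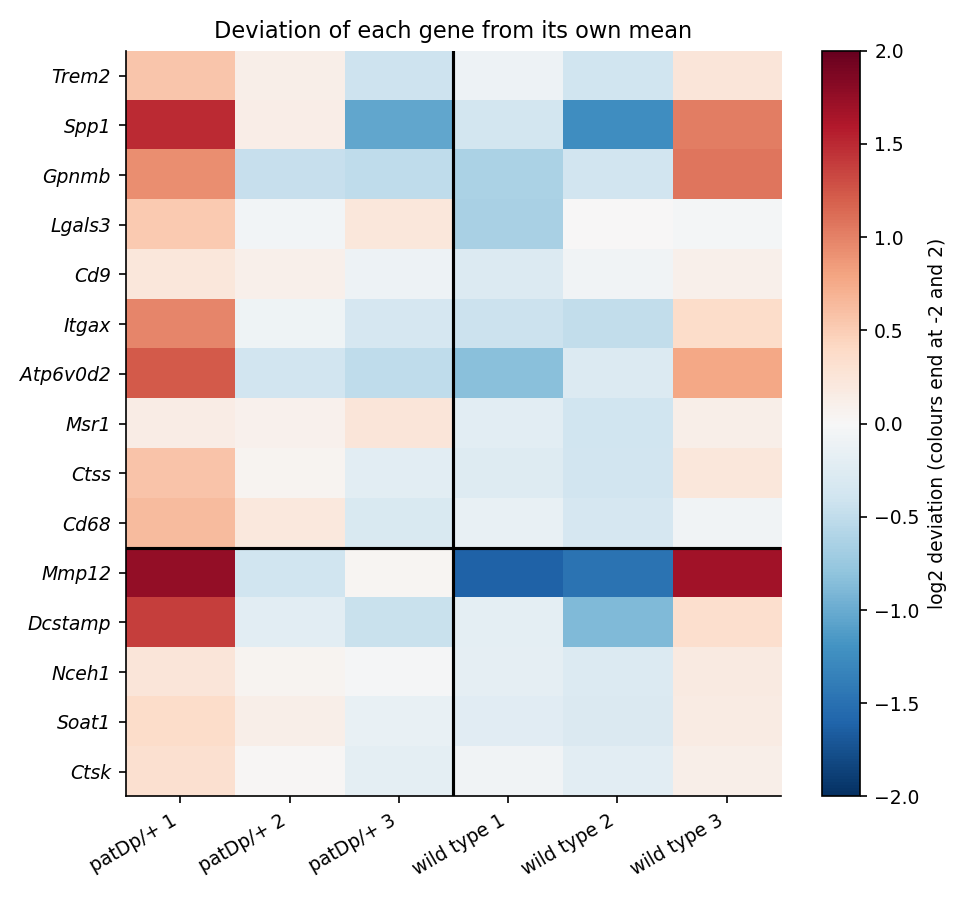
Log2 deviation of each gene from its own mean over the 6 arrays, as colour, for the 10 lipid-associated macrophage genes (above the line) and for Mmp12, Dcstamp, Nceh1, Soat1 and Ctsk (below it, chosen because their 2 highest mice were the same pair, as were those of 5.03% of all genes). The columns of patDp/+ replicate 1 and wild type replicate 3 are red for most rows, and Mmp12 reaches its 2 highest levels there (-1.41 and -1.49).

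Over all genes, the profiles most like the average of the 10 genes were found by the mean absolute difference of centred log2 values over the 6 mice, among 1064 genes whose range was at least that of the average (1.13). The closest were F7, the gene of coagulation factor VII (0.083), the fibrillin gene Fbn2 (0.084), Creg2 (0.095), Fbxw27 (0.122) and the trypsinogen gene Try5 (0.125). F7, for example, had centred values of 0.84, -0.03 and -0.20 in patDp/+ mice, against -0.63, -0.35 and 0.37 in wild type mice. With 6 mice many genes can take a like order, and the likeness is a description.

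The promoters were searched, on both strands, for motifs of factors that act in macrophages. These were PU.1, the master factor of myeloid cells (GAGGAAG), the M-box of the lysosomal MITF and TFEB family (TCATGTG and TCACGTG), and AP-1, bound by Fos and Jun proteins (TGAGTCA). A promoter entry was found for 8 of 10 genes, each from 250 bases before to 50 after the start, and Atp6v0d2 and Msr1 had none. The 8 genes had 9 entries, since Spp1 had a further one, which held no match. A gene was counted if any of its entries held the letters, whereas the shares over all promoters count entries. PU.1 letters were found for Trem2, Spp1 and Ctss (3 of 8 genes), against 13.6% of 32851 promoters. AP-1 letters were found for Gpnmb, Itgax and Cd68 (3 of 8), against 5.2%. TCATGTG was found for Ctss alone, and TCACGTG for no gene, against 3.77% of promoters for each. No pair of matches overlapped. Of the 6 genes with patDp/+ replicate 1 and wild type replicate 3 as their 2 highest mice, Trem2, Spp1 and Ctss had the PU.1 letters. Gpnmb and Itgax had the AP-1 letters, and Atp6v0d2 had no entry. None of the motifs searched was thus found for all of these genes that had an entry, and other motifs were not searched.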

How the data were processed

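The deposited intensity values are, per the file headers, processed signals of Feature Extraction 9.5.1.1, background-subtracted within an array and not scaled between arrays. A further table by the authors gives log2 values normalized between arrays (column medians 7.58) and served as an alternative. Once genes were centred, each of its columns correlated best with its own array (0.771 to 0.869). Agilent Feature Extraction 9.5 and limma 3.18.2 are named in the submitters' processing notes, without their roles.

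Levels are log2 of the processed intensity relative to the 75th percentile of the non-control probes on that array. Outlier spots were dropped and replicate spots averaged, and a gene is its kept probe with the highest mean. Names were updated through RefSeq accessions of assembly GRCm38.p6 (27151 probes matched). Probe coordinates are those of the scanner files (mm9), and their place in exons or UTRs was not analysed here. Groups were taken from the titles, since the source name reads wild type for every sample. The comparison used limma 3.58.1 (R 4.3.3), two-sided, without covariates, with Benjamini-Hochberg adjustment over 19187 genes and a threshold of 0.05. Errors of a log2 difference are limma's standard errors. The number of arrays limits the precision. Mice of the same number shared a slide, but their deviations did not go together (correlations of 0.11, -0.09 and -0.04).

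The genes and lists were chosen with earlier results of these data known. From each list, genes with the smallest p are named, at most 4. A few of them are not reported here. The settings varied were normexp background correction (offset 50), quantile and cyclic loess normalization, the table of log2 values, 2 changed filters, a mean over probes, slide or replicate blocks, array weights, a variance trend, and leaving out each array.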

Additional observations from a re-analysis of the deposited data

How the results depend on the processing

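Over 17 other settings, 168 log2 differences of the 10 genes were recomputed. Of these, 157 kept their direction and 11 turned, and 0 passed the adjusted threshold in limma (smallest adjusted p = 0.432, Cd68 without patDp/+ replicate 3). Many of the 157 could not have turned. The slide and replicate blocks, the variance trend and the 2 changed filters left each difference they gave as it was. The mean over probes did so for the 7 genes with 1 kept probe. The 157 is thus no measure of how stable the directions are. Without patDp/+ replicate 1 the sign turned for Atp6v0d2 (-0.33), Spp1 (-0.25), Trem2 (-0.056) and Itgax (-0.024). Gpnmb turned to 0.025 with normexp, where the median of all genes was 0.074 (-0.01 in the reported setting), so that relative to other genes it stayed below. It turned to 0.19, 0.22 and 0.49 when patDp/+ replicate 2, patDp/+ replicate 3 or wild type replicate 3 was left out. Array weights turned Atp6v0d2 to -0.15. Leaving out wild type replicate 1 turned it to -0.14, and leaving out wild type replicate 2 turned Spp1 to -0.13. The cause was not tested. With each array left out in turn, the difference ran between -0.33 and 0.67 for Atp6v0d2, between -0.50 and 0.49 for Gpnmb, between -0.024 and 0.65 for Itgax, between -0.25 and 1.01 for Spp1 and between -0.056 and 0.43 for Trem2. Cd68, Cd9, Ctss, Lgals3 and Msr1 had a positive difference under every setting in which they were tested, although that of Cd9 with normexp (0.0057) was below the median of all genes. The count of genes higher at an unadjusted p under 0.05 was 1 (Msr1) with the deposited table, against 2.58% of all genes. It was also 1 (Msr1) with the slide as a block, against 2.36% of all genes. The replicate block equals the slide block because mice of the same number shared a slide. When each array was left out, the count ran between 0 and 1, against between 1.51% and 5.72% of all genes. The count at an adjusted p under 0.05 was 0 under each of the 17 settings. The median difference of the 10 genes ran between 0.02 and 0.48 when each array was left out, and between 0.14 and 0.31 under the other settings. The filter on all 6 arrays removed Spp1 and Atp6v0d2, which are close to background.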

Other observations

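For Gpnmb and Cd9 another probe on the array was not well above background on any array, although the probe used for each gene was well above it on all 6. The unused Cd9 probe is listed on chromosome 6 between 125445268 and 125445327 on the plus strand (mm9), whereas the probe used is on the minus strand. Its log2 level was -7.86, -8.10 and -7.35 on the patDp/+ arrays and -7.83, -7.69 and -7.92 on the wild type arrays. The unused Gpnmb probe lies between 49007112 and 49007171 on the plus strand of chromosome 6, after the probe used, which ends at 49006445. Its level was -7.80, -8.09 and -7.27 on the patDp/+ arrays and -7.78, -7.59 and -7.90 on the wild type arrays. Levels of such probes are those of the array's background and give no order of the mice.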
